A study of Mus musculus with 19 samples.

Results

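Hepcidin, the liver hormone that lowers iron export into blood, and the BMP-SMAD genes that set its transcription were described across 5 groups of mouse liver RNA-seq libraries. The set has 10 genes, chosen by symbol from the gene count table, which has 55416 gene lines, 52083 of them with a symbol. All 10 passed the low-count filter and are among the 15570 genes tested. They are Hamp (hepcidin), its suppressor Tmprss6, the ligands Bmp2 and Bmp6, the receptor-activated SMADs Smad1 and Smad9, the inhibitory SMADs Smad6 and Smad7, and the target genes Id1 and Id3.

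In liver, BMP2 and BMP6 are made mainly by sinusoidal endothelial cells and act on hepatocytes. They bind BMP receptors together with the co-receptor hemojuvelin, receptor-activated SMADs are phosphorylated, and with SMAD4 these bind the hepcidin promoter and other target genes. Inflammation feeds into the same promoter through IL-6 and STAT3, while Tmprss6, Smad6 and Smad7 restrain the BMP signal. Secreted hepcidin causes the iron exporter ferroportin to be degraded.

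All mice were C57BL/6, and liver RNA was poly(A)-selected. The groups were 4 non-injected wild-type (WT) livers labelled normal, 4 WT livers after vehicle, 4 WT livers after furosemide, 4 IL-6 -/- livers after vehicle and 3 IL-6 -/- livers after furosemide, 19 libraries in all. Injected mice received 2 intraperitoneal injections 3 h apart, of 4 mg furosemide or of vehicle, and liver was taken 6 h after the first. Furosemide is a loop diuretic, and its groups are labelled as pre-renal azotemia (PRA), a rise of nitrogenous waste in blood from poor kidney perfusion. Every azotemic mouse had the drug, so an effect of furosemide itself and one of azotemia cannot be told apart. Age, sex and the IL-6 allele were not in the labels used here. Nothing in the labels ties replicates to different animals, and the p-values therefore reflect library-to-library spread that may be technical.

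The upstream sequences are shown because hepcidin is read through a BMP element and a STAT element close to its start, and because its paralog and the 2 most responsive SMAD genes can be compared with it. RefSeq promoters of build GRCm38.p6 were used for 6 of the 10 genes, and not for Bmp2, Smad7, Id1 and Tmprss6. Each line gives the 250 bases before the annotated start, 5′ to 3′ on the gene's strand, with matches to 2 motifs in capitals. The first motif is GGCGCC, the core of the BMP element, and the other is TTCNNNGAA, the STAT element. Each motif is its own reverse complement, so both strands were read at once, and their matches here do not overlap. Hamp is on the minus strand at chr7:30944030-30944279, Hamp2 on the minus strand at chr7:30924182-30924431, Smad9 on the plus strand at chr3:54755332-54755581 and Smad1 on the minus strand at chr8:79399429-79399678.
Hamp: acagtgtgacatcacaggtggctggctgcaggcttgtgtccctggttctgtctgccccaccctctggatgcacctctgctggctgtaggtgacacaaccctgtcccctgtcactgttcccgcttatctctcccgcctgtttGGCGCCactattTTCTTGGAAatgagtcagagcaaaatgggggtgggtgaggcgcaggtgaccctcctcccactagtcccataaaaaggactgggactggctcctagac
Hamp2: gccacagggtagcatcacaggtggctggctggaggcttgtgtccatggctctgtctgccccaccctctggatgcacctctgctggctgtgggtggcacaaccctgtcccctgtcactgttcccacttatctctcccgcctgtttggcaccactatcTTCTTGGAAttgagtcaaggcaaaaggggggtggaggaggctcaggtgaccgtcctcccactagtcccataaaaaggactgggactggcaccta
Smad9: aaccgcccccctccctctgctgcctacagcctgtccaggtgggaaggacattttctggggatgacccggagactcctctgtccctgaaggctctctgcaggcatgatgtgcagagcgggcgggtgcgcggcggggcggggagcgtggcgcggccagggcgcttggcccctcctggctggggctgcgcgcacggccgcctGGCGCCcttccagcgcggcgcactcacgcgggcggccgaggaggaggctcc
Smad1: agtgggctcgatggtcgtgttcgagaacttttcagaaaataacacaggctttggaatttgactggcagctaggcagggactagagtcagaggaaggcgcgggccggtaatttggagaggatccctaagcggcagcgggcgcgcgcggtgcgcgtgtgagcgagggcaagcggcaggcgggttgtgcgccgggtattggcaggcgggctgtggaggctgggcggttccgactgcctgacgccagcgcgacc

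Hamp held both motifs, GGCGCC at 109 to 104 bases before the start and TTCTTGGAA at 97 to 89. Its paralog Hamp2 kept the STAT letters, at 94 to 86 bases, but not the BMP letters. Where Hamp has GGCGCC, Hamp2 carries G4A, counted from 1 at the first base of that motif. Over the aligned windows 227 of 247 bases were identical (91.9%). Smad9, itself a BMP target, held GGCGCC at 51 to 46 bases, and the windows of Smad1, Smad6, Bmp6 and Id3 held neither motif. Among 32851 RefSeq windows of the same length, 9.586% held GGCGCC, 7.02% held TTCNNNGAA and 0.3683% (121 windows) held both. These are letter matches in 1 window and not evidence of binding.

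**Figure D1:**
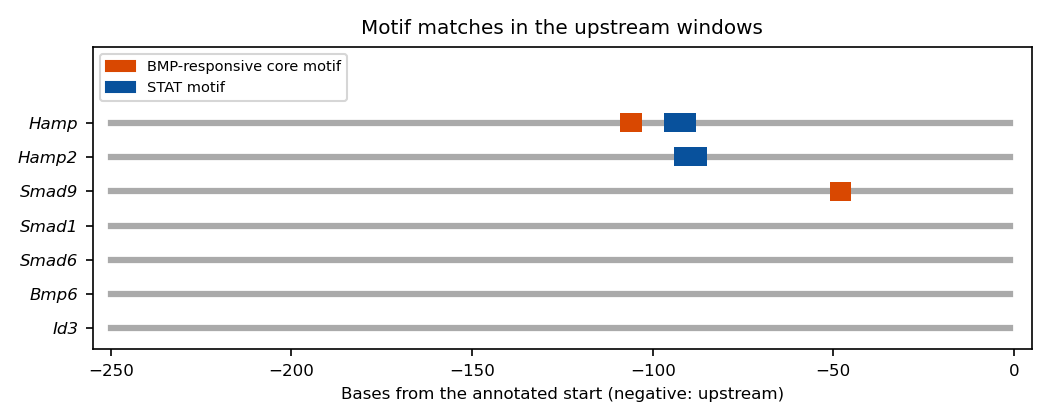
Positions of the GGCGCC (orange) and TTCNNNGAA (blue) matches in the 250 bases upstream of 7 genes, on an axis of bases from the annotated start. Hamp is the only one of the 7 with both motifs, at 109 to 104 and at 97 to 89 bases before the start.

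Libraries held 32073865 to 74041441 gene counts, and levels are given as CPM, counts relative to library size after TMM scaling. All 8 hepatocyte markers were present in every library, with summed levels of 75745 to 150331 CPM. Il6, the targeted gene, had 0 to 4 counts in each of the 12 WT libraries, 1 to 4 in the vehicle libraries labelled IL-6 knockout and 3, 16 and 5 in the PRA libraries labelled IL-6 knockout. Liver Il6 was thus too low in WT libraries to check the labels, and PRA replicate 2 of the labelled knockouts, with 16 counts (0.408 CPM), had more than any WT library. For the 10 genes, and for other named pathway genes, each library was left out in turn; for the latter this was chosen after seeing the data. WT vehicle replicate 1 also stood apart: its 12 sinusoidal endothelial markers summed to 580 CPM (382 to 432 in the other 3 of its group) and its hepatocyte markers to 77111 CPM (98932 to 101657 in the other 3). It was the highest of its group for Bmp2, Bmp6, Smad9 and Smad1 and the lowest for Hamp, Smad6, Id1 and Id3.

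Hepcidin mRNA was highest in WT liver after furosemide, 2.62-fold above normal liver, and its difference from vehicle did not pass the test. Hamp (ENSMUSG00000050440) stood at 684, 765, 656 and 689 CPM in the normal libraries. After vehicle the WT libraries read 812, 1610.3, 1046 and 1107 CPM, all above every normal library, and after furosemide they read 1544, 1949, 2112 and 1726 CPM. Only vehicle replicate 2 reached into the furosemide range. In the libraries labelled knockout Hamp was at 764, 862, 1249.6 and 748 CPM after vehicle and at 862, 1947 and 897 CPM after furosemide, so that 1 of the 3 furosemide libraries carried the higher mean.

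Against WT vehicle, the Hamp log2 fold change after furosemide was 0.68 ± 0.24 (SE; edgeR adjusted p = 0.0533), with a 95% interval of 0.17 to 1.19. It passed without vehicle replicate 2 (0.89, adjusted p = 0.0161) and with DESeq2 (adjusted p = 0.0161), and it was 0.56 without vehicle replicate 1 (adjusted p = 0.136). Against normal liver it was 1.39 ± 0.25 and passed (adjusted p = 0.000372). Vehicle alone against normal gave 0.71 ± 0.24, which did not pass (adjusted p = 0.149). The normal libraries are the only ones without injection, so handling and injection are part of both comparisons with them.

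In labelled knockout liver the Hamp change after furosemide was 0.45 ± 0.26 (edgeR adjusted p = 0.264), and without PRA replicate 2 it was -0.05 (adjusted p = 0.929). The difference between the genotypes' responses was -0.23 with an interval of -0.98 to 0.52 (adjusted p = 0.931). That interval holds both no difference and one as large as the WT response. Directly between the furosemide groups, Hamp was lower in labelled knockout liver by -0.57 ± 0.26 without passing (adjusted p = 0.294), and by -1.06 without PRA replicate 2, which passed (adjusted p = 0.0153). The hepcidin call between genotypes thus depends on 1 library.

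**Figure D2:**
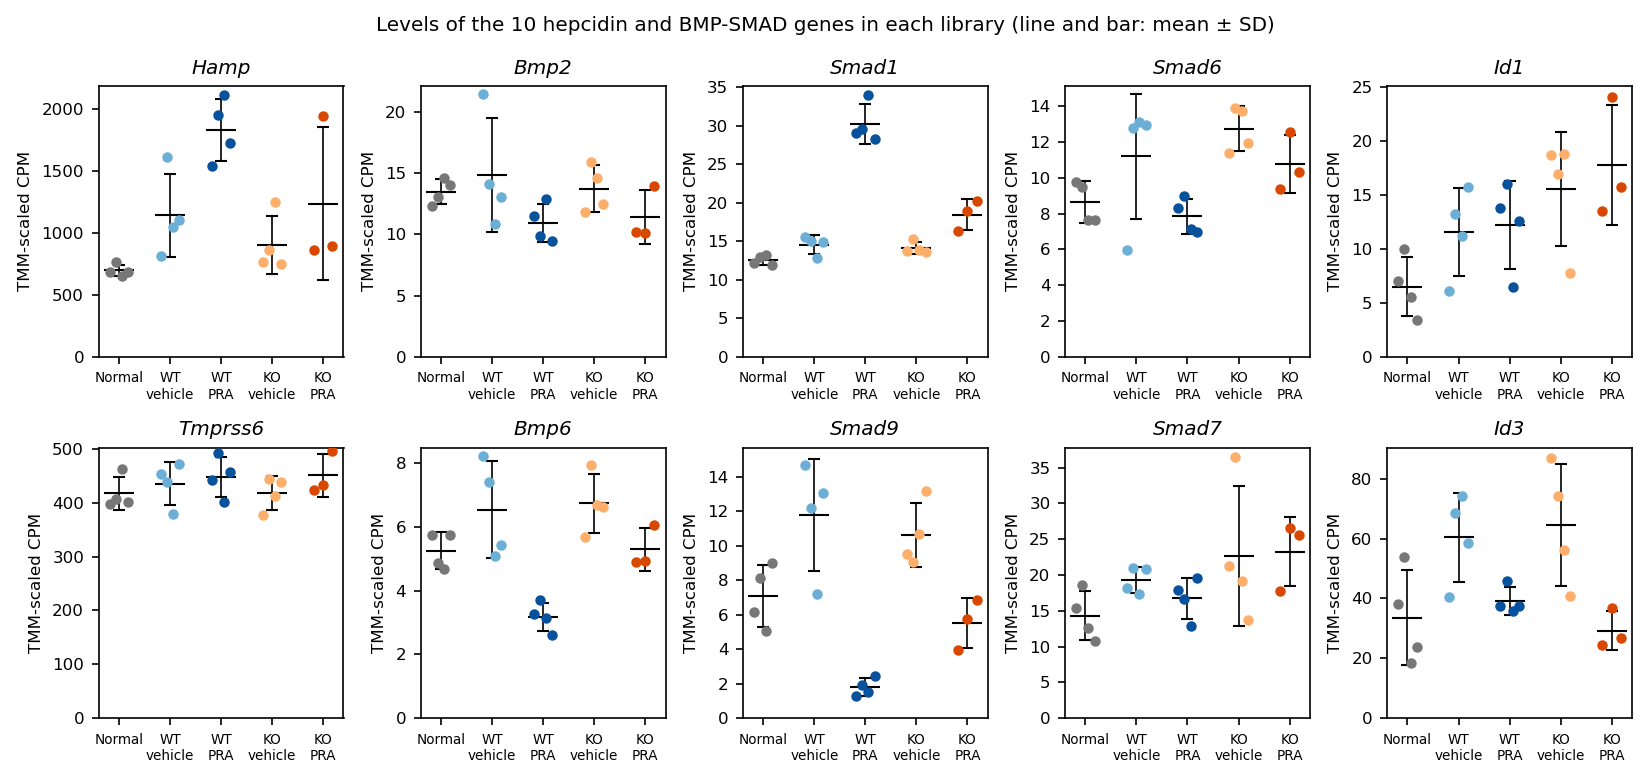
TMM-scaled CPM of each of the 10 genes (y axis, from 0) in the 19 libraries by group, with each point a library and the line and bar the mean and SD. Smad9 fell to 1.29 to 2.46 CPM and Smad1 rose to 28.3 to 34.1 CPM in WT livers after furosemide, while Tmprss6 stayed between 376 and 496 CPM in all 19 libraries.

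Hamp2, the mouse paralog of hepcidin, varied from 5.71 to 28.8 CPM with wide overlap of all 5 groups, and none of the 7 comparisons passed. In WT after furosemide it was at 16.9 ± 5.74 CPM (SD, n = 4) against 18.6 ± 10.9 after vehicle. Per kilobase of exon Hamp lay far above it, at 4470 CPM per kb against 28.9 in WT furosemide liver. Hamp and Hamp2 are close paralogs, and reads that fit both may have been left out as not unique, so their split is uncertain.

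Tmprss6 (ENSMUSG00000016942), the liver protease that cleaves hemojuvelin and so lowers hepcidin, was the most even of the 10 genes, its highest group mean being 1.08 times its lowest. It averaged 417 ± 30.6 CPM in normal, 435 ± 39.5 in WT vehicle, 448 ± 37.2 in WT PRA, 418 ± 30.8 in labelled knockout vehicle (SD, n = 4 each) and 451 ± 39.6 in labelled knockout PRA liver (n = 3). The WT furosemide change was 0.04 with an interval of -0.15 to 0.24, which leaves out a change of the size seen for Smad1. No comparison passed for it.

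Among the ligands, Bmp6 fell in WT liver after furosemide and Bmp2 did not pass. Bmp6 (ENSMUSG00000039004), the ligand that iron loading induces, was at 8.21, 7.42, 5.10 and 5.43 CPM after WT vehicle and at 3.27, 3.70, 3.13 and 2.62 CPM after furosemide. The groups did not overlap, and the furosemide libraries also lay below all normal libraries (5.73, 4.88, 4.67 and 5.76 CPM). The log2 change was -1.04 ± 0.16 (edgeR adjusted p = 8.18e-05), and -0.90 without vehicle replicate 1. Over all 15570 genes tested in this comparison, 22.1% were called, 9.74% higher and 12.3% lower, beside 3 of the 10 genes here (Smad1 higher, Bmp6 and Smad9 lower). The genes called higher made up 44.1% of all called, and 34% with upper quartile scaling.

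In labelled knockout liver Bmp6 stood at 5.69, 7.95, 6.70 and 6.61 CPM after vehicle and at 4.89, 4.92 and 6.07 CPM after furosemide, with overlap. Its change of -0.35 ± 0.17 did not pass (edgeR adjusted p = 0.174), and neither did the difference between the genotypes' responses (0.70 ± 0.23, adjusted p = 0.282). After furosemide, labelled knockout liver had 1.67-fold more Bmp6 than WT (0.74 ± 0.17, adjusted p = 0.0168). That call was lost without WT PRA replicate 4 (adjusted p = 0.0658) or without knockout PRA replicate 3 (adjusted p = 0.093).

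Bmp2 (ENSMUSG00000027358), the other endothelial ligand, was at 21.5, 14.1, 10.8 and 13.01 CPM after WT vehicle and at 11.5, 9.86, 12.9 and 9.44 CPM after furosemide, with overlap. Its change was -0.45 ± 0.17 (edgeR adjusted p = 0.0634), and -0.20 without vehicle replicate 1 (adjusted p = 0.333). It passed without vehicle replicate 3 (-0.57, adjusted p = 0.0181) and without PRA replicate 3 (-0.54, adjusted p = 0.0462). The labelled knockouts had 11.8 to 15.9 CPM after vehicle and 10.1 to 13.97 CPM after furosemide (-0.26 ± 0.18, adjusted p = 0.361), and normal liver had 12.3 to 14.6 CPM. Of the 7 ligands listed, 3 fell in WT after furosemide and none rose: Bmp6, Bmp5 (-0.87 ± 0.20, adjusted p = 0.00303) and Gdf2, which encodes BMP9 (-0.34 ± 0.11, adjusted p = 0.0274). The Gdf2 call was made in 4 of 8 fits without 1 library. Those that fell were 42.9% of the ligands, beside 12.3% of all genes. The ligands' median change was -0.64, beside -0.03 over all genes tested. Among labelled knockouts 1 of 7 (14.3%, beside 8.38% of all genes) fell, Bmp5 (-0.62 ± 0.21, adjusted p = 0.0487), with a median of -0.26. That call was lost without PRA replicate 2 (-0.44, adjusted p = 0.235) and made in 2 of 7 fits without 1 library.

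Markers of the cells that make these ligands moved too. Of 12 sinusoidal endothelial markers, 9 fell and 1 rose in WT after furosemide (median -0.61), and 5 fell and 1 rose in labelled knockout liver (median -0.44). Those that fell were 75% and 41.7% of the list, beside 12.3% and 8.38% of all genes. Kdr, the VEGF receptor 2, fell by 1.53 on the log2 scale in WT, and the marker that rose was Lyve1 (1.29 ± 0.27), named after its value was seen. Their summed level was 314 to 366 CPM in WT PRA libraries against 382 to 580 CPM in WT vehicle, and 312 to 401 CPM against 417 to 463 CPM in labelled knockouts. None of the 12 was at 0 in any library. Of 9 pan-endothelial markers 2 fell in WT and 0 in labelled knockouts (22.2% and 0%), with medians of -0.20 and -0.03. In bulk liver fewer cells of a type and less RNA per cell cannot be told apart, and the part of endothelial content in the ligand changes was not tested.

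Other cell markers were counted beside all genes, of which 22.1% were called in WT and 16.3% in labelled knockouts. Kupffer and cholangiocyte markers lay below these shares. Of 11 stellate and fibroblast markers, 5 fell in WT and 4 in labelled knockouts (45.5% and 36.4%). Of 9 Kupffer markers 1 rose in WT and 0 in labelled knockouts (11.1% and 0%). Of 9 neutrophil markers listed, 5 passed the low-count filter, which can keep a gene through 1 group where it is high. All 5 rose in WT and 1 did in labelled knockouts, so the WT count may be partly set by the filter. The 9 summed to only 1.38 to 3.05 CPM in WT vehicle libraries against 9.72 to 11.8 CPM after furosemide. In labelled knockout vehicle libraries the sum was already 4.28 to 6.10 CPM. Of 5 erythroid markers tested of 7 listed, 4 rose in WT, all globin genes, and 0 in labelled knockouts (80% and 0%). Of 8 hepatocyte markers 2 rose in WT and 3 in labelled knockouts (25% and 37.5%). Of 5 cholangiocyte markers tested 1 passed in WT and 0 in labelled knockouts (20% and 0%). That marker, the keratin gene Krt19, read 40.9, 0.947, 1.097 and 0.805 CPM in the WT PRA libraries against 1.04 to 1.47 CPM after vehicle. Without PRA replicate 1 its change was -0.41 and did not pass (edgeR adjusted p = 0.329). The part of these cells in the results here was not tested.

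Receptors and co-receptors were called about as often as all genes, 23.1% against 22.1% in WT and 15.4% against 16.3% in labelled knockouts. Of the 13 tested of 14 listed, 2 rose in WT after furosemide: Hfe, whose product senses iron status with transferrin receptors (0.42 ± 0.08, edgeR adjusted p = 0.000976), and Tfr2, the liver transferrin receptor that acts with it (0.27 ± 0.10, adjusted p = 0.0433), a call made in 3 of 8 fits without 1 library. One fell, the endothelial BMP co-receptor Eng (-0.44 ± 0.09, adjusted p = 0.00142). There Hfe rose in labelled knockouts as well (0.33 ± 0.09, adjusted p = 0.0152) and Eng fell (-0.33 ± 0.10, adjusted p = 0.0264). Without PRA replicate 2 neither passed (adjusted p = 0.0889 and 0.0618), and over all 7 fits without 1 library Hfe passed in 5 and Eng in 3. The median over the list was 0.01 in WT and -0.03 in labelled knockouts. Hjv, which encodes hemojuvelin, was 94.2 ± 9.25 CPM after WT vehicle against 67.8 ± 3.97 in normal liver (0.47 ± 0.11, adjusted p = 0.0199), a call made in 4 of 8 fits without 1 library. Furosemide against vehicle did not pass for it.

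**Figure D3:**
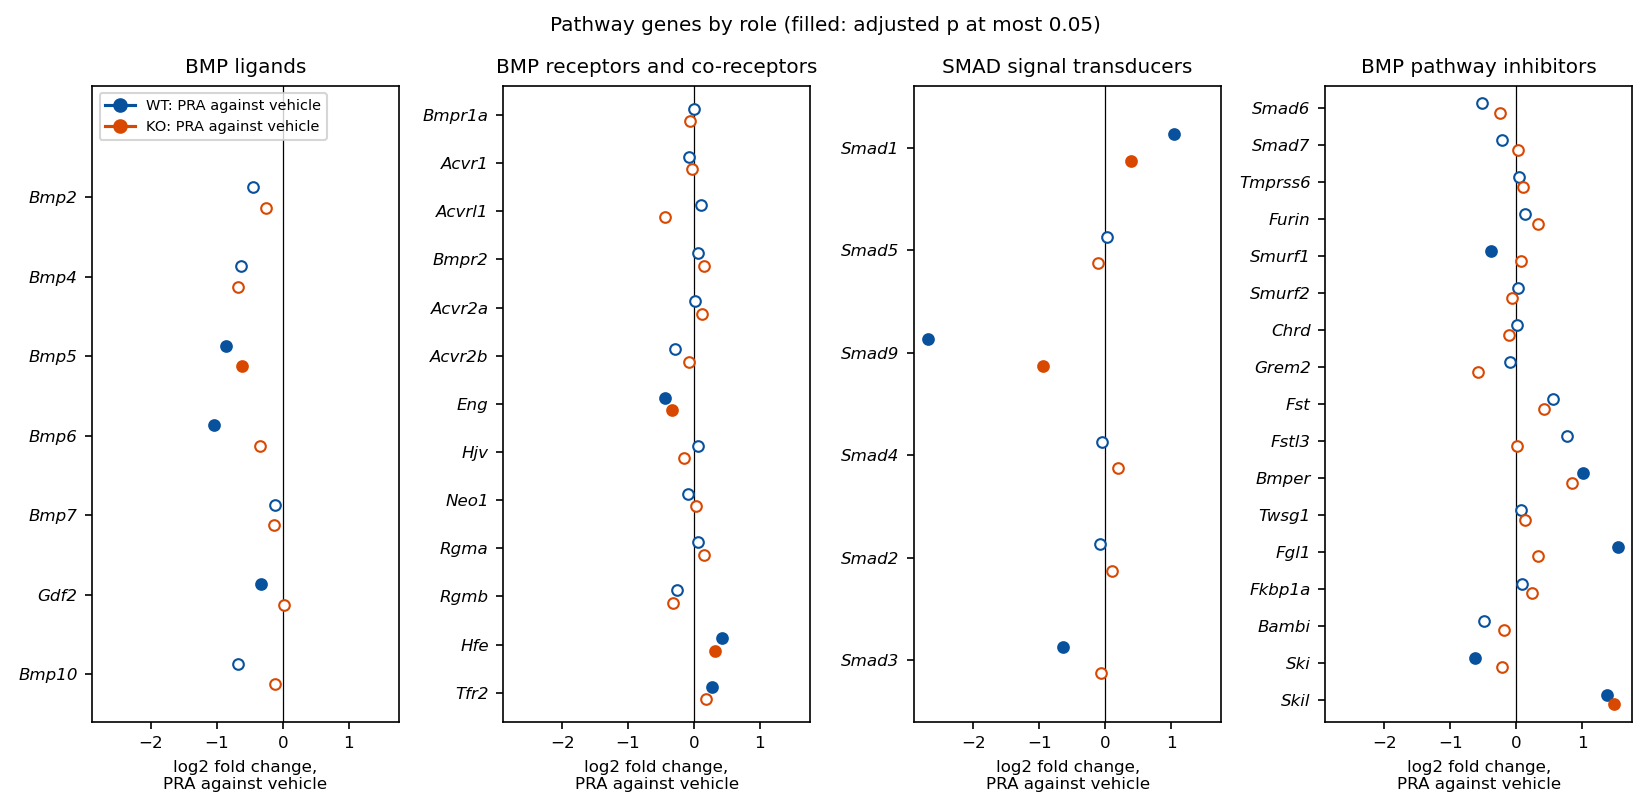
Log2 fold change of furosemide against vehicle (x axis) for ligands, receptors, SMADs and inhibitors in WT (blue) and labelled knockout (orange) liver, with filled points for adjusted p at most 0.05. The widest response in the 4 panels is Smad9 in WT at -2.68, and Smad1 is the only SMAD transducer called higher in either genotype.

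Smad9 fell and Smad1 rose after furosemide in both genotypes. Smad9 (ENSMUSG00000027796), which encodes SMAD8, was at 14.7, 12.2, 7.20 and 13.1 CPM after WT vehicle and at 1.29, 1.94, 1.55 and 2.46 CPM after furosemide. Smad1 (ENSMUSG00000031681), which encodes a BMP-activated SMAD that acts beside SMAD5 in hepatocytes, was at 15.5, 15.1, 12.9 and 14.9 CPM and then at 29.0, 29.6, 34.1 and 28.3 CPM. For both genes the furosemide libraries lay outside the range of all vehicle and normal libraries. Normal liver had 5.06 to 9.002 CPM of Smad9 and 12.0 to 13.2 CPM of Smad1. Smad9 changed by -2.68 ± 0.25 (edgeR adjusted p = 4.99e-07) and Smad1 by 1.05 ± 0.09 (adjusted p = 5.79e-08), a 2.07-fold rise.

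Both moved the same way in labelled knockout liver by less. Smad9 went from 9.51, 9.07, 10.7 and 13.2 CPM to 3.98, 5.76 and 6.86 CPM (-0.94 ± 0.25, edgeR adjusted p = 0.0153). Smad1 went from 13.7, 15.3, 13.9 and 13.6 CPM to 16.3, 18.9 and 20.2 CPM (0.39 ± 0.10, adjusted p = 0.0075). Neither pair of groups overlapped. The Smad9 call was lost without PRA replicate 1 (-0.73, adjusted p = 0.0931), and the Smad1 call held in each of the 7 fits that left out 1 library. In this comparison 16.3% of all genes were called, 7.96% higher and 8.38% lower, beside 3 of 10 here (Smad1 higher, Smad9 and Id3 lower). The higher genes made up 48.7% of those called, and 35.3% with upper quartile scaling.

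The difference between genotypes was itself past the test for both genes. The response of labelled knockout liver minus that of WT was 1.74 ± 0.35 for Smad9 (edgeR adjusted p = 0.0247) and -0.66 ± 0.13 for Smad1 (adjusted p = 0.0209), where 0.475% of all genes were called, 0.0385% higher and 0.437% lower. The size of both held when any 1 library was left out, at 1.55 to 1.93 and -0.73 to -0.59. The calls did not: Smad9 passed in 6 of 15 such fits and Smad1 in 12 of 15. Without PRA replicate 2 of the labelled knockouts neither passed (Smad9 1.71, adjusted p = 0.0857; Smad1 -0.68, adjusted p = 0.0517), and without WT PRA replicate 3 neither did (adjusted p = 0.0671 and 0.0598). Smad1 was also lost without labelled knockout PRA replicate 1 (-0.59, adjusted p = 0.0752). Smad9 was also lost, with adjusted p of 0.0522 to 0.0968, without WT vehicle replicate 1, 2 or 4, WT PRA replicate 1, labelled knockout vehicle replicate 1 or 3, or labelled knockout PRA replicate 3. Limma-voom gave 1.45 for Smad9 without passing (adjusted p = 0.101).

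Between the furosemide groups, labelled knockout liver had 3-fold more Smad9 than WT (1.59 ± 0.27, edgeR adjusted p = 0.00147) and less Smad1 (-0.71 ± 0.10, adjusted p = 0.000106). Here 3.8% of all genes were called, 1.64% higher and 2.15% lower, beside 3 of 10. After vehicle none of the 10 differed between genotypes by edgeR, where 0.0706% of all genes were called, 0.0514% higher and 0.0193% lower. At an unadjusted p under 0.05 the count was also 0, and it was 0 by DESeq2 and limma-voom. The comparisons share libraries: WT furosemide libraries enter 4 of the 7 and labelled knockout furosemide libraries enter 3.

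**Figure D4:**
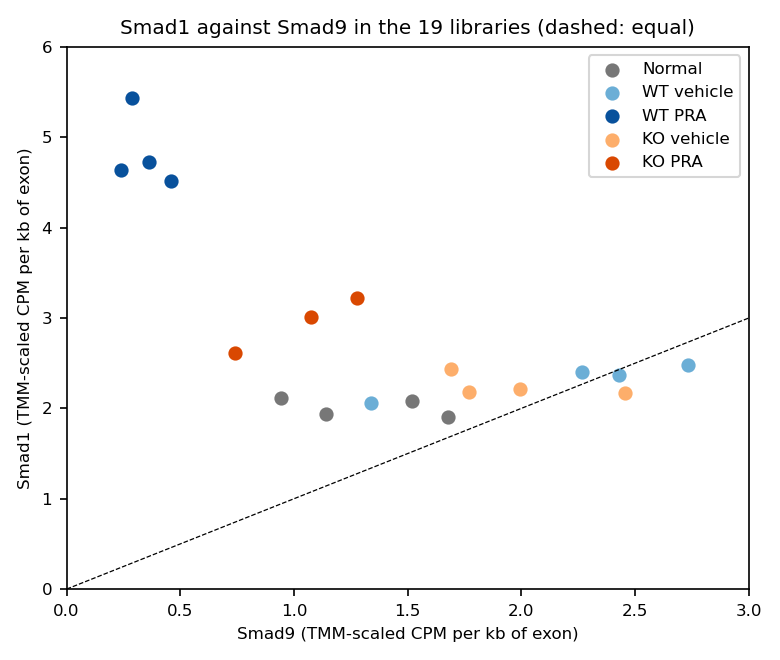
Smad1 against Smad9 in CPM per kilobase of exon, 1 point per library coloured by group, with the dashed line marking equal levels. The 4 WT PRA libraries lie at 0.241 to 0.459 for Smad9 and 4.51 to 5.44 for Smad1, apart from the other 15.

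Per kilobase, which allows genes to be compared, Smad1 and Smad9 stood close to equal after vehicle and far apart after furosemide. Their ratio of levels had a median of 1.02 in WT vehicle libraries (0.908 to 1.53) and 15.95 in WT PRA libraries (9.84 to 19.2). In labelled knockouts it was 1.17 (0.884 to 1.44) after vehicle and 2.81 (2.52 to 3.52) after furosemide, and in normal liver 1.54 (1.14 to 2.24). Smad5, the remaining BMP-activated SMAD, was flat at group means of 1.64 to 1.78 CPM per kb. Of the 6 transducers, 1 rose and 2 fell in WT (50% called, beside 22.1% of all genes). The other that fell was the TGF-beta SMAD Smad3 (-0.63 ± 0.19, edgeR adjusted p = 0.0185). The Smad3 call was lost without vehicle replicate 1 or PRA replicate 3, and Smad4, Smad2 and Smad5 did not pass.

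The inhibitory SMADs did not pass in any comparison. Smad6 (ENSMUSG00000036867), which blocks BMP receptor signalling, was at 5.99, 12.8, 13.1 and 12.9 CPM after WT vehicle and at 8.34, 8.98, 7.12 and 6.96 CPM after furosemide. Replicate 1 lay below every furosemide library and the other 3 vehicle libraries above them. The change was -0.51 ± 0.19 (edgeR adjusted p = 0.0558), and -0.71 without that replicate (adjusted p = 0.000386). The labelled knockouts had 11.4, 13.9, 13.7 and 11.9 CPM after vehicle and 9.40, 12.6 and 10.3 CPM after furosemide (-0.25 ± 0.20, adjusted p = 0.439), the latter all above the WT furosemide libraries. Smad7 (ENSMUSG00000025880), which blocks both BMP and TGF-beta receptors, averaged 14.3 ± 3.39 CPM in normal, 19.3 ± 1.85 in WT vehicle, 16.7 ± 2.89 in WT PRA and 22.7 ± 9.76 in labelled knockout vehicle liver (SD, n = 4 each), and 23.3 ± 4.81 in labelled knockout PRA liver (n = 3). It had changes of -0.21 ± 0.24 in WT (adjusted p = 0.579) and 0.03 ± 0.26 in labelled knockouts (adjusted p = 0.949).

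The Id genes, rapid BMP targets that encode inhibitors of DNA-binding factors, passed in edgeR after furosemide only as Id3 in labelled knockouts. Id3 (ENSMUSG00000007872) stood at 86.9, 74.2, 56.1 and 40.8 CPM in labelled knockout vehicle libraries and at 24.4, 36.7 and 26.7 CPM after furosemide, with no overlap (-1.14 ± 0.34, edgeR adjusted p = 0.0296). Only 3 of 7 fits without 1 library kept that call: it was lost without vehicle replicate 1 (adjusted p = 0.0806) or 2 (0.0587) and without PRA replicate 1 (0.1099) or 3 (0.0937), with values from -1.34 to -0.96. In WT it went from 40.4, 68.6, 74.3 and 58.7 CPM to 37.5, 46.0, 35.8 and 37.3 CPM, which overlapped and did not pass (-0.63 ± 0.30, adjusted p = 0.156). The difference between the genotypes' Id3 responses did not pass either (-0.52 ± 0.45, adjusted p = 0.837).

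Id1 (ENSMUSG00000042745) overlapped between furosemide and vehicle in both genotypes. It was at 6.13, 13.2, 11.2 and 15.7 CPM after WT vehicle and 13.8, 16.01, 6.48 and 12.6 CPM after furosemide (0.08 ± 0.38, edgeR adjusted p = 0.906). In labelled knockouts it was at 18.7, 17.0, 18.8 and 7.77 CPM and then at 13.5, 24.1 and 15.8 CPM (0.19 ± 0.40, adjusted p = 0.799). The intervals, -0.72 to 0.88 and -0.66 to 1.04, reach changes of 0.88 and 1.04 on the log2 scale. Of the 10 BMP target genes listed, 1 fell in WT (Smad9) and 2 in labelled knockouts (Smad9 and Id3), and none rose, with medians of -0.33 and -0.21. Those that fell were 10% and 20% of the list, beside 12.3% and 8.38% of all genes, and 0 to 2 fell in labelled knockouts without any 1 library.

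**Figure D5:**
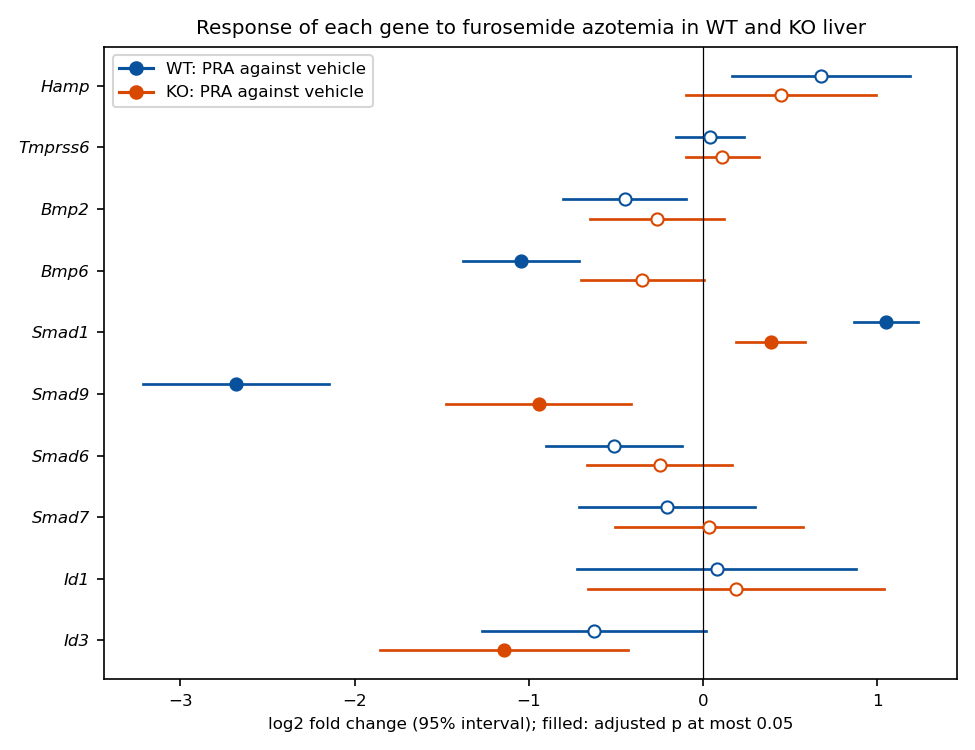
Log2 fold change of furosemide against vehicle with its 95% interval (x axis) for the 10 genes in WT (blue) and labelled knockout (KO, orange) liver, filled where adjusted p was at most 0.05. Hamp and Smad1 lie to the right of 0 in WT while Bmp2, Bmp6, Smad6 and Smad9 lie to the left, with Smad1, Bmp6 and Smad9 filled, and the intervals of the genotypes are apart for Smad1, Smad9 and Bmp6.

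The order of the group means differed by gene. Hamp and Smad1 shared it, from WT PRA through labelled knockout PRA, WT vehicle and labelled knockout vehicle to normal, but neighbouring groups all overlapped for Hamp. For Smad1 the only neighbours that overlapped were WT vehicle and labelled knockout vehicle, and WT vehicle also overlapped normal. Smad9 ran from WT vehicle through labelled knockout vehicle, normal and labelled knockout PRA to WT PRA, with no overlap between the second and the third and between the last pair. For Bmp6 the only neighbours without overlap were normal and WT PRA, its lowest groups, and WT PRA lay below all libraries of the other groups. For Bmp2, Smad6, Smad7, Id1, Id3 and Tmprss6 every pair of neighbours overlapped. The highest group mean was 6.498 times the lowest for Smad9, 2.74 for Id1, 2.62 for Hamp and 2.40 for Smad1.

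The effect of vehicle injection was compared through WT vehicle against normal liver. None of the 10 passed in edgeR, where 2% of all genes were called, 1.18% higher and 0.822% lower. At an unadjusted p under 0.05 there were 5, all higher after vehicle (Hamp, Smad9, Smad1, Id1 and Id3), beside 8.73% of all genes higher and 6.51% lower by that measure. DESeq2 called 1 (Smad9) and limma-voom called 2 (Hamp and Id3). In edgeR, Smad6 passed without WT vehicle replicate 1 (0.58, adjusted p = 0.0185) and Smad9 without WT vehicle replicate 3 (0.91, adjusted p = 0.0292). Id3 had 18.4 to 53.9 CPM in normal liver and 40.4 to 74.3 after vehicle. The median change of the 10 was 0.40, beside 0.01 over all genes. WT PRA against normal called 4 (Hamp and Smad1 higher, Bmp6 and Smad9 lower), beside 28.4% of all genes, 13.5% higher and 14.9% lower. Limma-voom called 6, adding Bmp2 (-0.35, adjusted p = 0.0342) and Id1 (0.98, adjusted p = 0.0350), and edgeR on only the groups compared called 5, adding Bmp2 (-0.30, adjusted p = 0.0466). In that comparison Smad9 changed by -1.94 ± 0.25 and Smad1 by 1.26 ± 0.09, so the furosemide levels lay beyond normal liver and not only beyond vehicle. Id1, at 0.91 ± 0.38 (edgeR adjusted p = 0.0886), passed without normal replicate 2 (1.20, adjusted p = 0.0399) or WT PRA replicate 3 (1.12, adjusted p = 0.0426).

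Secreted and nuclear inhibitors of the pathway held some of the larger changes. Of 17 tested of 21 listed, 3 rose and 2 fell in WT after furosemide, and 1 rose in labelled knockouts. Those called were 29.4% and 5.88% of the list, beside 22.1% and 16.3% of all genes. Fgl1, a secreted hepatocyte protein that binds BMP6 and lowers hepcidin, went from 290.0 ± 28.2 to 847 ± 17.0 CPM (SD, n = 4 each; 1.55 ± 0.20, edgeR adjusted p = 1.86e-05). In labelled knockout liver it was 209 ± 50.3 and then 263 ± 91.0 CPM and did not pass (adjusted p = 0.313). Skil, a nuclear SMAD co-repressor, rose in both genotypes (1.38 ± 0.17 and 1.49 ± 0.17), while the related Ski fell in WT (-0.63 ± 0.12). Between furosemide groups Fgl1 was lower in labelled knockouts (-1.69 ± 0.22, adjusted p = 0.000121), and its interaction did not pass, except without labelled knockout vehicle replicate 4 or PRA replicate 1.

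The inflammatory inputs to hepcidin changed in both directions. Of 16 tested of 17 listed, 6 rose and 3 fell in WT, and 5 rose and 2 fell in labelled knockouts, with medians of 0.11 and 0.18. Those called were 56.2% and 43.8% of the list, beside 22.1% and 16.3% of all genes. Inhbb, the activin B subunit that induces hepcidin in inflammation, rose in WT (2.66 ± 0.17, edgeR adjusted p = 8.59e-10) and in labelled knockouts (3.56 ± 0.18, adjusted p = 9.56e-11). Socs3, the feedback inhibitor that STAT3 induces, went from 19.1 ± 4.42 to 70.3 ± 17.7 CPM in WT and from 15.0 ± 7.36 to 17.7 ± 1.49 CPM in labelled knockouts. After furosemide it was lower in labelled knockouts (-1.99 ± 0.45, adjusted p = 0.0201), though none of the 16 passed for the interaction with all libraries in. Inhbb did without vehicle replicate 3 of either genotype. The Socs3 call was made in 3 of 7 fits without 1 library and was lost without PRA replicate 2 of the labelled knockouts (-1.95, adjusted p = 0.0827). Cebpb, an acute phase transcription factor, rose in both (1.86 ± 0.10 and 1.59 ± 0.11). Between furosemide groups Cebpb was lower in labelled knockouts, a call made in all 7 fits without 1 library (-0.59 to -0.50). Its interaction passed in 0 of 15 such fits.

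Of 20 iron transport and storage genes, 4 rose and 3 fell in WT and 4 rose and 2 fell in labelled knockouts. Those called were 35% and 30% of the list, beside 22.1% and 16.3% of all genes. Hmox1, which frees iron from heme, rose in both (3.32 ± 0.33 and 3.04 ± 0.33), and Slc39a14, a hepatocyte importer of free iron, rose in both (1.25 ± 0.15 and 0.88 ± 0.16). Between furosemide groups Slc39a14 was lower in labelled knockouts, a call made in all 7 fits without 1 library (-1.24 to -0.85). Its interaction passed in 0 of 15 such fits. Hpx, which encodes the heme carrier hemopexin, rose in WT (1.55 ± 0.19) and did not pass in labelled knockouts (0.27 ± 0.20). The labelled knockouts read 6582, 3370 and 2898 CPM after furosemide against 3163 to 3942 CPM after vehicle, so only PRA replicate 1 lay above the vehicle range. The difference between the genotypes' Hpx responses passed (-1.29 ± 0.27, edgeR adjusted p = 0.0327). The Hpx difference passed in 4 of 15 fits without 1 library, and without PRA replicate 2 of the labelled knockouts it was -1.14 (adjusted p = 0.125). Slc40a1, which encodes ferroportin, is named after its value was seen as the target of hepcidin. It fell from 71.9 ± 8.39 to 47.9 ± 11.6 CPM in WT (-0.59 ± 0.17, adjusted p = 0.0177), with overlap, a call made in 4 of 8 fits without 1 library.

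The genes most like 3 of the set were found by Pearson correlation of log2 CPM over the 19 libraries, among 11088 candidates, as a description. For Hamp they were Prdx3 (0.91), Snhg5 (0.89), Mpnd (0.88), Hpd (0.88) and Fah (0.87). For Smad9 they were Sox18 (0.92), Plk2 (0.91), Tnfrsf11b (0.91), Gprin3 (0.90) and Sh3bp5 (0.90). For Id1 they were Cela1 (0.89), Lect2 (0.87), Pon1 (0.85), Ces3a (0.81) and Phyh (0.81). Of each 5, 3, 0 and 4 were also among the 5 highest by Spearman correlation, and 0 of each were by correlation over the 5 group means, so the lists depend on the measure. The points share library depth and the 5 group means.

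Deviations from the group means, which leave the groups out, showed which of the 10 moved together between replicates. Over 19 libraries r was 0.74 for Id1 with Id3, 0.73 for Bmp2 with Smad1, 0.70 for Smad7 with Id1, 0.69 for Smad6 with Id1 and 0.69 for Bmp2 with Bmp6. Hamp gave 0.57 with Smad6, 0.44 with Id1 and -0.05 with Bmp6, and Bmp2 gave -0.61 with Smad6. PRA replicate 2 of the labelled knockouts was the highest of its group for Hamp, Smad6, Smad7, Id1 and Id3. WT vehicle replicate 1 was the highest of its group for Bmp2, Bmp6, Smad9 and Smad1 and the lowest for Hamp, Smad6, Id1 and Id3. How far single libraries carry these values was not tested.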

How the data were processed

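Liver poly(A) RNA of 19 libraries in 5 groups was analysed from the raw counts per gene that the authors deposited. HTSeq 0.11.3, HISAT2 2.2.1, SAMtools 1.13 and build GRCm39 are named per the submitters' processing notes. The annotation release and the strand setting are not given in these sources, so overlapping or antisense genes cannot be told apart. Of all reads, 66.95% to 71.71% were counted in genes, 14.07% to 19.15% were not unique and 6.28% to 7.58% lay outside genes; these lines were left out. With edgeR 4.0.16 (R 4.3.3), genes were kept by filterByExpr, scaled by TMM and fitted together by quasi-likelihood, with 1 coefficient for each group and no covariate. P-values were adjusted by Benjamini-Hochberg over 15570 genes in each of 7 contrasts, at 0.05. Depth of 32073865 to 74041441 counts makes a count of 0 allow up to 3 counts, or 0.0405 to 0.0935 CPM, for counting error only. The members and gene lists were chosen with earlier results of these data known. All 10 members, Hamp2 and Il6 are named, and up to 4 genes per list and contrast by smallest p among those past the threshold. Same-numbered libraries correlated in their deviations at -0.25 to 0.19, with 9 of 36 pairs over 0.1, beside 16 of 108 other pairs. The medians were 0.005 and -0.008. The best match in another group had the same number for 6 of 19 libraries. No clear pairing by number was seen, and none was used in the main fit. Replicates of a group differed by more than sampling noise, with chi-square at least 22.74 times its degrees of freedom. On simulated counts for WT PRA against vehicle (15320 genes), 40.3%, 74.6% and 86.4% of genes changed 1.5-, 2- and 4-fold were recovered, and for the interaction (15325 genes) 10.4%, 47.8% and 72.7%. Only 67, 67 and 66 genes were changed by these sizes. The data called 3437 genes in WT PRA against vehicle, so the rates need not hold for that comparison. Exon lengths are the union of exons in GENCODE vM21 (GRCm38), and no coordinates were converted. Alternatives were RLE and upper quartile scaling, 2 other low-count filters, a replicate block, only the groups compared, limma-voom (limma 3.58.1) with sample weights, DESeq2 1.42.0 and leaving out each library in turn; for the list genes the last was chosen after seeing the data.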

Additional observations from a re-analysis of the deposited data

Results flagged for a closer look

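In 40 sets of a gene in a group of 4 libraries, 5 had 1 library far from the other 3, where chance gives about 1 in 20. Smad6 was lowest in WT vehicle replicate 1, at 5.986 CPM, and without it the WT change passed. Smad1 was highest in labelled knockout vehicle replicate 2 (15.27 CPM), Id1 was lowest in labelled knockout vehicle replicate 4 (7.774 CPM), Id3 was highest in WT PRA replicate 2 (45.96 CPM) and Tmprss6 was highest in normal replicate 3 (462.8 CPM). The response to furosemide differed between genotypes for Smad9, by 1.739 on the log2 scale as labelled knockout minus WT (edgeR adjusted p = 0.0247), and for Smad1, by -0.6623 (adjusted p = 0.0209).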

How the results depend on the processing

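The lowest level of the 10 genes in any library was 1.29 CPM (Smad9, 36 counts). Over the 7 comparisons, Smad1, Smad9 and Bmp6 in WT after furosemide passed under every alternative run. So did Smad1 in labelled knockouts after furosemide, and Smad1 and Smad9 between the furosemide groups. In WT PRA against normal the same held for Hamp, Bmp6, Smad9 and Smad1. Of all values computed for the 10 genes, 36 changed sign and 0 of those passed. The members called in WT after furosemide were 5 with upper quartile scaling, with only the groups compared and with limma-voom, against 3, and 3 to 4 without any 1 library. For the interaction 1 of the members passed with no filter and with limma-voom, and 0 to 2 without any 1 library. In labelled knockouts 1 to 3 members passed without any 1 library. For WT vehicle against normal 2 members passed with limma-voom, 1 with DESeq2 and 0 to 1 without any 1 library. Over all genes, labelled knockout vehicle against WT vehicle called 7 with only those groups, 23 with limma-voom, 52 with DESeq2 and 2 to 15 without any 1 library, against 11. WT vehicle against normal called 154, 701, 647 and 128 to 299 of all genes in that order, against 311. labelled knockout PRA against WT PRA called 898 with limma-voom, 927 with DESeq2 and 314 to 489 without any 1 library, against 591. The interaction called 178 with DESeq2 and 37 to 95 without any 1 library, against 74, and labelled knockout PRA against labelled knockout vehicle 1671 to 2499 against 2544. The cause of these shifts was not tested.

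The replicate block, with numbers that showed no clear pairing of the libraries, changed 1 call: Hamp in WT after furosemide was 0.71 (adjusted p = 0.0136), so that 4 members passed. Without the block, Hamp also passed with the 1 CPM filter (adjusted p = 0.0493), with only the groups compared (0.0199) and with DESeq2 (0.0161). Smad6 in WT passed with upper quartile scaling (0.0401) and limma-voom (0.0042), Bmp2 with upper quartile scaling (0.0316), and Id3 with only the groups compared (0.0223) and limma-voom (0.0492). Smad9's interaction was lost with no filter (0.0646), and so was Id3 in labelled knockouts (0.0606).

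Signs changed for values that did not pass. With upper quartile scaling Tmprss6 in WT was -0.00587 and Smad7 in labelled knockouts -0.0314. Between the furosemide groups Tmprss6 was -0.0237 with only those groups and -0.0324 with limma-voom, which also gave Id1 in WT at -0.0561 and, between the vehicle groups, Smad7 at -0.0380 and Id3 at -0.188. Without any 1 library, the change after furosemide in WT ran from -0.126 to 0.289 for Id1 and -0.0199 to 0.0893 for Tmprss6. In labelled knockouts it ran from -0.0454 to 0.677 for Hamp, -0.143 to 0.364 for Smad7 and -0.0929 to 0.374 for Id1. The interaction ran from -0.0504 to 0.310 for Bmp2, -0.172 to 0.322 for Id1 and -0.00402 to 0.130 for Tmprss6. Between furosemide groups the range was -0.103 to 0.159 for Bmp2 and -0.0645 to 0.0582 for Tmprss6, and between vehicle groups -0.243 to 0.113 for Bmp2, -0.0609 to 0.167 for Bmp6, -0.0260 to 0.275 for Smad6, -0.0979 to 0.408 for Smad7 and -0.0834 to 0.259 for Id3. For WT vehicle against normal Bmp2 ran from -0.101 to 0.265.

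For pathway genes outside the 10, leaving out a library was chosen after seeing the data. Krt19 in WT after furosemide ran from -0.41 without PRA replicate 1 to 3.48, and was 3.00 without vehicle replicate 1. Values that did not pass also changed sign: Skil's interaction ran from -0.0660 to 0.273 and was -0.000613 without labelled knockout PRA replicate 2 and 0.1003 without WT PRA replicate 1. Between furosemide groups Hmox1 ran from -0.316 to 0.306, at 0.0632 without that replicate and 0.0317 without WT PRA replicate 1. Sinusoidal endothelial markers that fell numbered 6 to 9 in WT and 4 to 6 in labelled knockouts without any 1 library.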
